A study of Mus musculus with 15 samples.

Results

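The genes of the T cell receptor complex and its coreceptors were followed in RNA-Seq of mouse aortas from an androgen deprivation and replacement experiment. They are the 4 signaling chains *Cd3d*, *Cd3e*, *Cd3g* and *Cd247*, the coreceptors *Cd4*, *Cd8a* and *Cd8b1*, and the kinases *Lck* and *Zap70*. All 9 were taken by symbol, out of 24982 gene symbols counted in each library, by a rule that uses no measured value, although the study had already named T cell receptor signaling among its results on these same mice and their direction is not independent evidence. Whole aortas came from 15 wild-type male C57BL/6 mice aged 10 months, 5 in each group and 1 mouse per library. Every mouse received aldosterone (200 µg/kg per day from a minipump) and drank 0.9% NaCl with 0.2% KCl over the same 7 days (Aldo-salt), so no group shows the aorta without Aldo-salt. Control mice had a sham operation, orchiectomized mice lost their testes 2 weeks earlier, and DHT mice were orchiectomized and also carried a pellet of dihydrotestosterone (DHT), an androgen that aromatase cannot turn into estrogen. DHT was given only after orchiectomy.

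A T cell recognizes peptides with a variable receptor pair that has no signaling tail of its own and depends on the CD3δ, CD3ε, CD3γ and CD3ζ chains, the last of which is encoded by *Cd247*. CD4 or CD8 binds the MHC molecule that presents the peptide and brings the kinase LCK to the complex. LCK phosphorylates the CD3 tails, ZAP-70 docks there, and the signal passes to the adaptors LAT and SLP-76. In the artery wall these transcripts come mainly from T cells in the adventitia and the surrounding fat, a small fraction of the tissue. In RNA from whole tissue, fewer T cells and less RNA per T cell cannot be told apart.

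Between 8268957 and 13816864 reads were assigned to genes per library, and 10 reads in a library of median size equal 0.915 CPM, the read count of a gene relative to the TMM-scaled library size. The 9 genes were therefore measured near the limit of detection in many aortas, with 1 to 29 reads in each control and DHT library apart from 96 reads of *Cd4* in control mouse 4. The summed level of 8 smooth muscle genes, the defining cell type of the aortic media, was high in every library (14128 to 20355 CPM in control, 10182 to 20559 in orchiectomized and 19801 to 24654 in DHT mice). A set of libraries stood apart. Orchiectomized mouse 2 had 26313 reads of the airway gene *Scgb1a1* and 22367 of the alveolar surfactant gene *Sftpc*, and its 13 lung markers summed to 7565 CPM, against 33.4 to 88.2 CPM in the other 14 libraries. Orchiectomized mouse 3 had 612 reads of *Rag1* and 215 of *Dntt*, which cut and extend receptor genes in immature lymphocytes, and 57 of *Prss16* and 13 of *Psmb11*, genes of thymic cortical epithelium. Control mouse 4 had 619 reads of *Cxcl13*, a B cell attracting chemokine of lymphoid tissue. The comparisons of the 9 genes with untreated orchiectomized mice are given with and without orchiectomized mice 2 and 3. A gene is called changed where the edgeR quasi-likelihood test gave an unadjusted *P* under 0.01, the threshold of the study, and Benjamini-Hochberg adjusted *P* values over all genes tested are printed beside the fold changes.

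The heatmap of the 9 genes beside markers of other cells shows these libraries. Apart from *Cd4*, its upper 9 rows are highest in orchiectomized mice 2, 3 and 4, which are also the libraries with the most B cell transcripts.

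**Figure D1:**
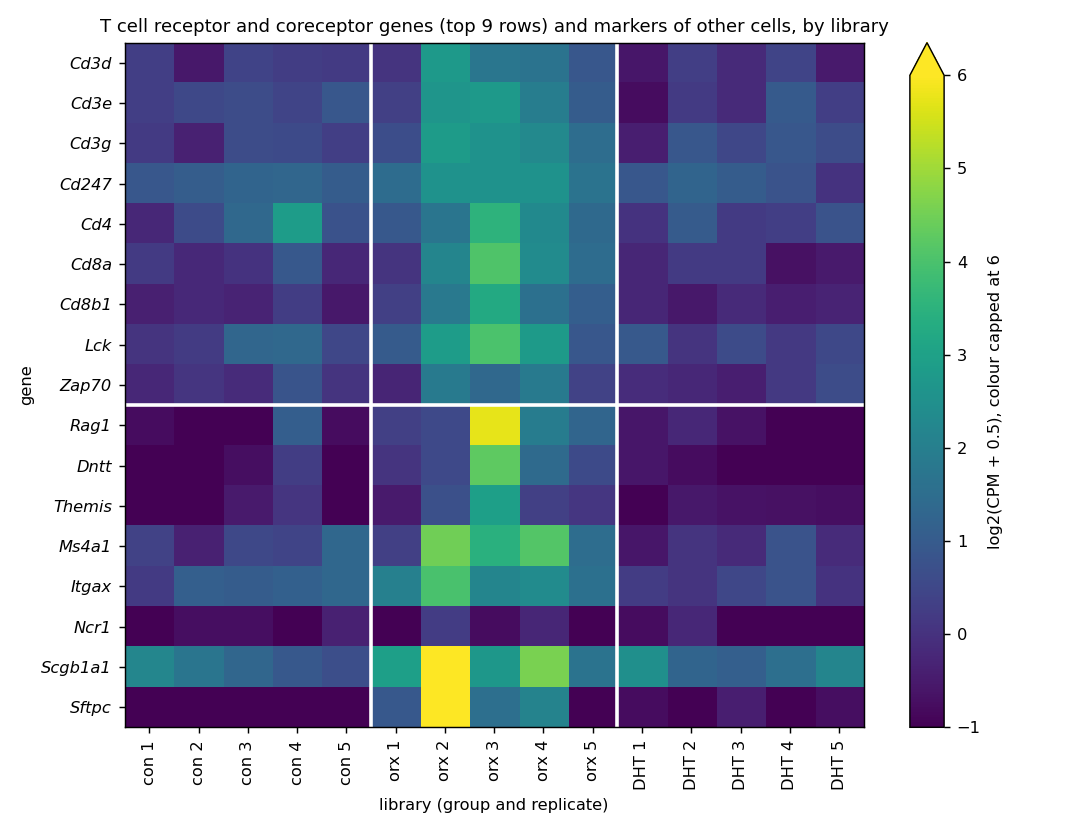
Levels of the 9 genes (above the white line) and of 8 marker genes (thymocyte *Rag1*, *Dntt*, *Themis*; B cell *Ms4a1*; dendritic cell *Itgax*; NK cell *Ncr1*; lung *Scgb1a1*, *Sftpc*) in each of the 15 libraries, as log2(CPM + 0.5), with color capped at 6. Orchiectomized mouse 3 stands out for *Rag1* (53.4 CPM) and orchiectomized mouse 2 for *Sftpc* (1942 CPM).

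The 4 signaling chains were higher in the mean in orchiectomized aortas than in control aortas and lower again with DHT. *Cd3e*, *Cd3g* and *Cd247* were called in both comparisons, and *Cd3d* was too low for that fit. Without orchiectomized mice 2 and 3, only *Cd3g* was still called against controls and only *Cd247* with DHT. The genes for CD3δ, CD3ε and CD3γ lie together on chromosome 9 of the GRCm38 build (GENCODE M21). *Cd3g* (chr9:44969572-44980431, minus strand) and *Cd3d* (chr9:44981786-44987339, plus strand) start 1355 bases apart and point away from each other, and *Cd3e* (chr9:44998740-45009627, minus strand) follows after *Cd3d*. The 250 bases before the RefSeq start (GRCm38.p6, each read 5′ to 3′ on the strand of its gene) are shown for the 2 genes that share this upstream interval, at chr9:44981536-44981785 for *Cd3d* and chr9:44980432-44980681 for *Cd3g*, with the only match to the ETS core AGGAAG, on either strand, in capitals.
Cd3d: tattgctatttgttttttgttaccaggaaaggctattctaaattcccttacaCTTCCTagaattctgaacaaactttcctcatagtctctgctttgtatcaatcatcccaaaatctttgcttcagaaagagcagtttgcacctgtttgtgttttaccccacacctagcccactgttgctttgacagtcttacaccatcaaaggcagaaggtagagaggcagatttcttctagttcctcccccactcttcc
Cd3g: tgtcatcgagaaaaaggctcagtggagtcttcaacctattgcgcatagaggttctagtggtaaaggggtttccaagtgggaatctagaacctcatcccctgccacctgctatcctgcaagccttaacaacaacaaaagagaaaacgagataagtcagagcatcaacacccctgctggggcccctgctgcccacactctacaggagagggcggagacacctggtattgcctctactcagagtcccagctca

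Neither *Cd3d* nor *Cd3g* held the androgen receptor hexamer AGAACA or the RUNX core TGTGGT on either strand of these windows. Among 10 upstream windows that RefSeq gives for *Cd3d*, *Cd3e*, *Cd3g*, *Cd247*, *Cd8a*, *Lck* and *Zap70*, 7 held AGGAAG, 2 held TGTGGT and 1 held AGAACA, each on either strand and each counted without regard to overlap. Over all 32851 windows of the same length the shares were 29.5%, 14.0% and 16.1%. Such a match describes the letters only and is not a site or a cause.

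*Cd3d* was at 0.724, 0.187, 0.833, 0.708 and 0.638 CPM in control mice 1 to 5. The orchiectomized mice 1 to 5 had 0.538, 6.25, 2.88, 2.68 and 1.38 CPM, and the DHT mice had 0.171, 0.720, 0.384, 0.863 and 0.207 CPM. All orchiectomized mice except mouse 1 lay above every control and every DHT mouse. With 2 to 10 reads outside the orchiectomized group, *Cd3d* was too low for the fit across all genes and was tested alone on log2(CPM + 0.5). Orchiectomized mice were 1.30 higher in the mean than controls (two-sided exact permutation *P* = 0.0397), and the mean, against untreated orchiectomized mice, fell by 1.53 with DHT (exact permutation *P* = 0.0238). When orchiectomized mice 2 and 3 were left out, the differences were 0.75 (exact permutation *P* = 0.143) and -0.98 (*P* = 0.0714), where 3 against 5 mice cannot give less than 0.0179. The first comparison also missed 0.05 when any 1 of the 5 control mice was left out, although the difference stayed at 1.14 to 1.38, or when orchiectomized mouse 2 was left out (0.97, exact permutation *P* from 0.0556 to 0.0873).

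*Cd3e*, the chain that most antibodies to CD3 bind, was at 0.724, 0.936, 1.04, 0.849 and 1.37 CPM in control mice 1 to 5 and at 0.753, 5.82, 6.37, 3.43 and 1.54 CPM in orchiectomized mice 1 to 5. DHT mice 1 to 5 had 0.0855, 0.630, 0.384, 1.48 and 0.723 CPM. Again 4 of the 5 orchiectomized mice were above all others, and mouse 1 was within the range of both other groups. *Cd3e* was called in both comparisons, with a log2 fold change of 1.87 ± 0.576 (SE) for orchiectomized against control mice (edgeR adjusted *P* = 0.288) and -2.46 ± 0.608 for DHT against untreated orchiectomized mice (edgeR adjusted *P* = 0.0336). Leaving out orchiectomized mice 2 and 3 gave 0.97 ± 0.566 and -1.57 ± 0.590, and neither was called. The first call was also lost when control mouse 1, 2, 3 or 4 (log2 fold changes of 1.78 to 1.86) or orchiectomized mouse 2 or 3 (1.62 and 1.53) was left out singly. Of its exon bases, 135 are shared with the antisense gene *Gm48719*.

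*Cd3g* had 0.633, 0.281, 1.04, 0.991 and 0.729 CPM in the controls. Its values were 1.08, 6.68, 5.41, 4.39 and 2.36 CPM after orchiectomy and 0.256, 1.35, 0.897, 1.36 and 1.03 CPM with DHT. Every orchiectomized mouse was above every control, the lowest of them by a narrow margin (1.08 against 1.04 CPM), and 4 of 5 were above every DHT mouse. Among all 14121 genes tested, 0.97% had all 5 orchiectomized mice above all 5 controls. *Cd3g* rose by 2.43 ± 0.509 on the log2 scale (edgeR adjusted *P* = 0.176) and fell by 2.04 ± 0.502 with DHT (edgeR adjusted *P* = 0.0337). The rise was 1.82 ± 0.518 and still called without orchiectomized mice 2 and 3, and the DHT difference was -1.42 ± 0.516 and not called.

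*Cd247*, whose product carries most of the activation motifs of the complex, had the smallest SD relative to its mean of the 9 genes in the control mice (0.254 of 1.67 CPM) and in the orchiectomized mice (1.61 of 4.23 CPM). The controls had 1.36, 1.59, 1.88, 1.98 and 1.55 CPM, the orchiectomized mice 2.26, 5.38, 5.41, 5.42 and 2.68 CPM, and the DHT mice 1.37, 1.89, 1.54, 1.23 and 0.516 CPM. The orchiectomized group overlapped with neither other group, as for 4.28% of all genes against the DHT mice. Both differences were called, with log2 fold changes of 1.34 ± 0.329 (edgeR adjusted *P* = 0.244) and -1.69 ± 0.337 (edgeR adjusted *P* = 0.0162). They were 1.05 ± 0.361, no longer called, and -1.39 ± 0.368, still called, without orchiectomized mice 2 and 3. At this locus (chr1:165788681-165877277, plus strand) 3213 of 5329 exon bases are also exons of *Gm16565* on the same strand or *Pou2f1* on the other, so the counts are uncertain if strand was not used in counting. *Pou2f1* itself was at 18.4 ± 2.70, 17.5 ± 3.66 and 20.2 ± 2.29 CPM (mean ± SD, n = 5) in control, orchiectomized and DHT mice.

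**Figure D2:**
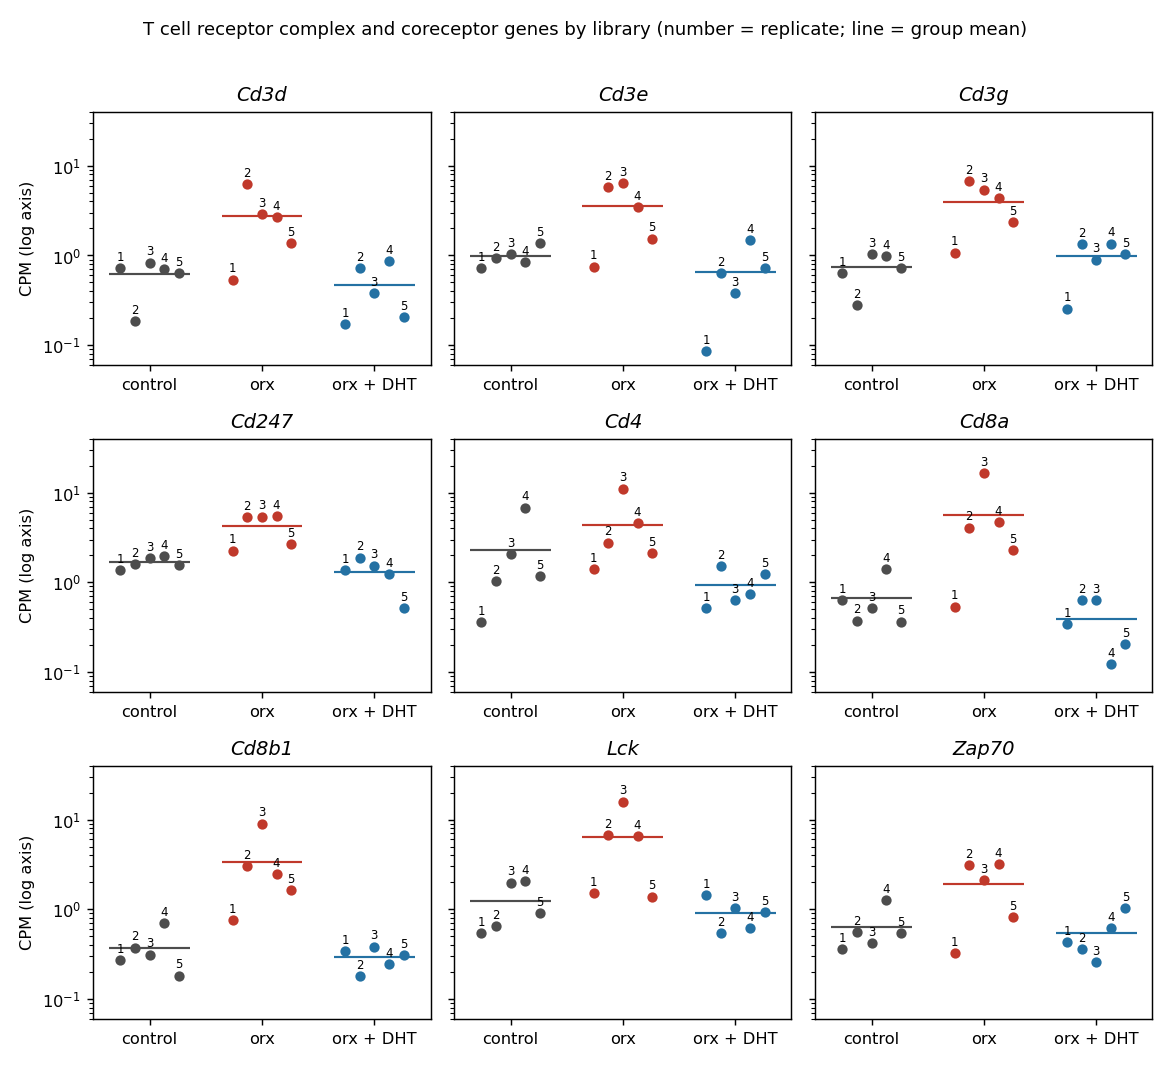
CPM of each of the 9 genes on a log axis, 1 point per mouse numbered by replicate within the control, orchiectomized (orx) and orchiectomized + DHT groups, with a line at the group mean. Orchiectomized mice 2, 3 and 4 are above every control and DHT mouse for all genes but *Cd4*, and orchiectomized mouse 1 is the lowest of its group for all but *Lck*.

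Among the coreceptors, both CD8 chains rose with orchiectomy and fell with DHT. *Cd4* also fell with DHT but did not pass the test against controls. *Cd8a* (chr6:71373427-71379173) and *Cd8b1* (chr6:71322788-71337494) lie on the plus strand 35933 bases apart, and *Cd4* is on the minus strand of the same chromosome (chr6:124864692-124888221). CD8α pairs with itself or with CD8β, and the mixed pair is typical of cytotoxic T cells and of thymocytes. The window before *Cd8a* (chr6:71373177-71373426) is shown because it was the only one of the 10 with the androgen receptor hexamer AGAACA, in capitals, 189 bases before the start.
Cd8a: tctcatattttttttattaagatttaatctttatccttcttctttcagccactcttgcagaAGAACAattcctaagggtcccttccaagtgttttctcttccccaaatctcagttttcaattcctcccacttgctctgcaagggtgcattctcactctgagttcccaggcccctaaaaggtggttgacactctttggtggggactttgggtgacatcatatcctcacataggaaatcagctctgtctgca

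*Cd8a* was at 0.633, 0.374, 0.521, 1.42 and 0.365 CPM in control mice 1 to 5. After orchiectomy the values were 0.538, 4.08, 16.4, 4.67 and 2.28 CPM, and with DHT they were 0.342, 0.630, 0.640, 0.123 and 0.207 CPM. Mouse 3, the library with thymic transcripts, had 188 of the 336 *Cd8a* reads of the orchiectomized group, while mouse 1 had 5 reads and lay among the controls. The log2 fold changes were the largest of the 7 genes tested together, at 3.03 ± 0.713 for orchiectomized against control (edgeR adjusted *P* = 0.244) and -3.81 ± 0.768 for DHT against untreated orchiectomized mice (edgeR adjusted *P* = 0.0167). With orchiectomized mice 2 and 3 left out they were 1.88 ± 0.610 and -2.65 ± 0.652, and both were still called. *Cd8a* passed the filter through 4 orchiectomized libraries and control library 4, so a difference was partly built into its being tested.

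*Cd8b1* had 0.271, 0.374, 0.313, 0.708 and 0.182 CPM in the controls, 0.753, 3.04, 8.99, 2.47 and 1.63 CPM in the orchiectomized mice, and 0.342, 0.180, 0.384, 0.247 and 0.310 CPM in the DHT mice. All 5 orchiectomized mice were above all 10 others, with mouse 1 (7 reads) next to control mouse 4 (10 reads in a deeper library). Among the 14121 genes tested together, which do not include *Cd8b1*, 0.97% had all orchiectomized mice above all controls and 4.28% above all DHT mice. It was too low for the fit across all genes, and on log2(CPM + 0.5) it rose by 1.84 (exact permutation *P* = 0.00794) and fell by 1.95 with DHT (exact permutation *P* = 0.00794), the smallest *P* that 5 against 5 mice allow. Leaving out orchiectomized mice 2 and 3, the differences were 1.22 and -1.34, each at the smallest *P* of 3 against 5 (exact permutation *P* = 0.0179).

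*Cd4*, which is also expressed at a lower level by some macrophages and dendritic cells, was at 0.362, 1.03, 2.08, 6.79 and 1.19 CPM in the controls. The orchiectomized mice had 1.40, 2.78, 11.1, 4.53 and 2.11 CPM, and the DHT mice had 0.513, 1.53, 0.640, 0.740 and 1.24 CPM. Only orchiectomized mouse 3 was above control mouse 4, whereas 4 of the 5 orchiectomized mice were above every DHT mouse. The rise with orchiectomy did not pass the test (log2 fold change 0.92 ± 0.669, edgeR adjusted *P* = 0.587), and that value rested on single libraries, being 1.92 and called without control mouse 4 0.22 without orchiectomized mouse 3, and 0.22 ± 0.703 without orchiectomized mice 2 and 3. With DHT, *Cd4* was lower than in untreated orchiectomized mice (-2.22 ± 0.721, edgeR adjusted *P* = 0.0900). This call was lost without orchiectomized mice 2 and 3 (-1.51 ± 0.732), and singly without control mouse 3, orchiectomized mouse 3 or 4, or DHT mouse 1, 3, 4 or 5 (log2 fold changes of -2.31 to -1.51). Of 10 macrophage markers, 0 were called in orchiectomized against control mice at *P* under 0.01 or under 0.05 (edgeR), and 2 of 10 were called lower with DHT (6 with *P* under 0.05, median log2 fold change -0.76, with 7.27% of all genes called lower), which became 0 of 10 (edgeR, 1 with *P* under 0.05) without orchiectomized mice 2 and 3. Against controls, 0 of 10 were called with DHT (edgeR, 4 with *P* under 0.05).

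The balance of *Cd8a* to *Cd4* was read within each library, from the share of *Cd8a* among the reads of both. This share was 59.5% (95% Wilson interval 48.5 to 69.6) in orchiectomized mouse 2, 59.7% (54.2 to 65.0) in mouse 3, 50.7% (42.4 to 59.1) in mouse 4 and 51.9% (38.9 to 64.6) in mouse 5. It was 27.8% (12.5 to 50.9) in orchiectomized mouse 1 and 17.2% (11.4 to 25.1) in control mouse 4, the only control with more than 25 such reads. The other controls ranged up to 63.6%, on 11 reads in control mouse 1, and the DHT mice from 14.3% to 50% on 7 to 24 reads. These intervals cover counting error only. The mean log2 ratio of *Cd8a* to *Cd4* was -0.93 ± 0.86 (SD, n = 5) in control, 0.06 ± 0.57 in orchiectomized and -0.68 ± 0.53 in DHT mice. The differences of 0.99 (exact permutation *P* = 0.0714) and -0.74 (exact permutation *P* = 0.0635) did not pass 0.05, and both had an adjusted *P* of 0.107 over the 3 comparisons. They were 0.68 and -0.43 without orchiectomized mice 2 and 3 (exact permutation *P* = 0.268 and 0.232).

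**Figure D3:**
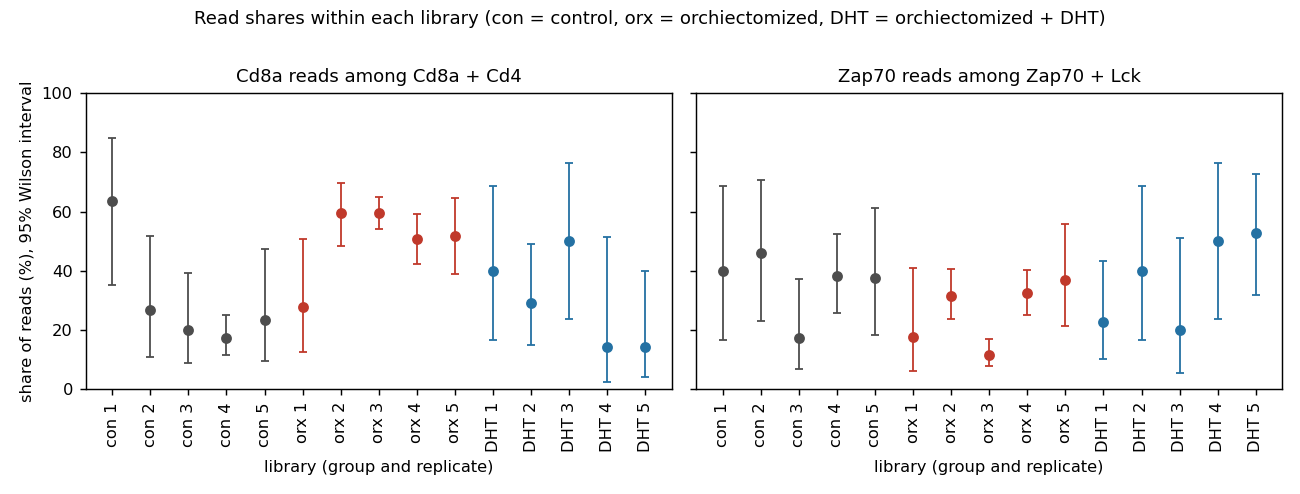
Share of *Cd8a* among *Cd8a* and *Cd4* reads (left) and of *Zap70* among *Zap70* and *Lck* reads (right) in each library, with 95% Wilson intervals for counting error. On the left, orchiectomized mice 2 to 5 sit between 50.7% and 59.7% and control mouse 4 at 17.2%. On the right, orchiectomized mouse 3 is at 11.7% and orchiectomized mice 2 and 4 are at 31.6% and 32.4%.

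Of the kinases, *Lck* was called in both comparisons and *Zap70* in that with DHT. *Lck* (chr4:129548344-129573641, minus strand) codes for the Src family kinase that starts the signal, and *Zap70* (chr1:36761798-36782818, plus strand) for the kinase recruited next, which NK cells also express. The window before the more upstream of the *Lck* starts (chr4:129573642-129573891, read on the minus strand) is shown because it held the most matches of the 10, 1 to the RUNX core TGTGGT and 3 to the ETS core AGGAAG or its reverse complement CTTCCT, in capitals.
Lck: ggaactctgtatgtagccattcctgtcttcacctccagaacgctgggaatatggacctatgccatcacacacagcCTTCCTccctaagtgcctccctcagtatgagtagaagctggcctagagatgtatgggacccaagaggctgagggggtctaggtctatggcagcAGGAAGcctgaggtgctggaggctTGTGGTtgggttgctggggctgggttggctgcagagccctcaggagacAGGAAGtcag

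*Lck* was at 0.543, 0.655, 1.98, 2.05 and 0.912 CPM in the controls. In orchiectomized mice 1 to 5 it was at 1.51, 6.77, 15.8, 6.59 and 1.38 CPM, and in DHT mice 1 to 5 at 1.45, 0.540, 1.02, 0.617 and 0.930 CPM. Mice 2, 3 and 4 of the orchiectomized group were above all controls, whereas mice 1 and 5 were within the control range. *Lck* rose by 2.38 ± 0.618 on the log2 scale with orchiectomy (edgeR adjusted *P* = 0.244). Against untreated orchiectomized mice it fell by 2.80 ± 0.640 with DHT (edgeR adjusted *P* = 0.0256). Both differences were called. The values without orchiectomized mice 2 and 3 were 1.37 ± 0.564, not called, and -1.78 ± 0.579, still called.

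*Zap70* had 0.362, 0.562, 0.417, 1.27 and 0.547 CPM in the controls, 0.323, 3.13, 2.10, 3.16 and 0.813 CPM in the orchiectomized mice, and 0.427, 0.360, 0.256, 0.617 and 1.03 CPM in the DHT mice. Orchiectomized mice 2, 3 and 4 stood above all others, and mouse 1, with 3 reads, was below every control. The orchiectomized mice did not differ from controls past the threshold (1.57 ± 0.555, edgeR adjusted *P* = 0.329), although they did without control mouse 4 (2.00) and without orchiectomized mouse 1 or 5. The difference was 1.17 ± 0.626 without orchiectomized mice 2 and 3. With DHT, *Zap70* was lower (-1.82 ± 0.576, edgeR adjusted *P* = 0.0838), a call lost without orchiectomized mice 2 and 3 (-1.43 ± 0.646) and in 7 of the 15 fits that left out a single library, those without orchiectomized mouse 2, 3 or 4 or DHT mouse 1, 2, 3 or 4 (log2 fold changes of -1.85 to -1.52).

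In orchiectomized mouse 3 the members stood in other proportions than in orchiectomized mice 2 and 4. *Zap70* was 11.7% of *Zap70* and *Lck* reads there (interval 7.99 to 16.8), against 31.6% (23.8 to 40.6) in mouse 2 and 32.4% (25.2 to 40.5) in mouse 4. The summed coreceptors stood at 1.82 times the summed CD3 and CD3ζ chains in mouse 3, compared with 0.410 to 0.755 in the other orchiectomized mice. Control mouse 4 had a ratio of 1.97, carried by *Cd4*, and the remaining 13 libraries lay between 0.225 and 0.755. Thymocyte markers moved with the coreceptors in mouse 3, where *Rag1* was at 53.4 CPM, *Dntt* at 18.8 CPM and *Themis* at 7.25 CPM. Their part in the result was not tested.

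Summed over the 9 genes, control mice had 5.61 to 16.8 CPM, with control mouse 4 highest. The orchiectomized mice had 9.14, 43.9, 74.5, 37.4 and 16.2 CPM, and the DHT mice 4.96 to 7.83 CPM. All orchiectomized mice were above all DHT mice on this sum, and mice 1 and 5 overlapped with the controls. Compared per kilobase of exon, so that levels of different genes can be set side by side, *Cd8b1* had the highest mean of the 9 in orchiectomized mice (2.28 ± 2.20 CPM per kb, SD), just above *Lck* (2.19 ± 2.00), and *Zap70* the lowest (0.636 ± 0.436). By the median, *Lck* (2.25) was above *Cd8b1* (1.67), which reached 6.06 in orchiectomized mouse 3, and *Cd4* (0.689) was below *Zap70* (0.700). In the controls the order of means ran from *Cd4* (0.568 ± 0.643) to *Cd8a* (0.182 ± 0.120). By the median *Cd3d* was highest there (0.390), and *Cd4* was at 0.294, with 1.68 in control mouse 4. With DHT the order of means ran from *Lck* (0.312 ± 0.124) to *Cd8a* (0.107 ± 0.0656). Neighbors in each order differed by less than the larger SD of the pair.

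Of the 9 genes, 7 passed the filter on low counts. In orchiectomized against control mice, 5 of these 7 were called higher (*Cd3e*, *Cd3g*, *Cd247*, *Cd8a* and *Lck*), where 2.08% of all 14121 genes tested were called higher and 3.22% were called in either direction, and 0% of all genes had an edgeR adjusted *P* under 0.05. By DESeq2, 4 of the 7 had an adjusted *P* under 0.05 (*Cd3g* 0.00314, *Cd8a* 0.0109, *Cd247* 0.0270 and *Lck* 0.0295), where 0.532% of 13910 genes with an adjusted value were higher by that threshold. In DHT against untreated orchiectomized mice, 7 of 7 were called lower and 5 had an edgeR adjusted *P* under 0.05, where 9.72% of all genes were called, 7.27% were called lower and 3.8% were lower by the adjusted threshold. By DESeq2 all 7 had an adjusted *P* under 0.05, the highest being 0.0495 for *Zap70*, where 6% of all genes were lower by that threshold. The median log2 fold changes of the 7 were 1.87 and -2.22, against 0.037 and -0.022 over all genes. Markers of the vessel wall also differed with DHT. Against untreated orchiectomized mice, 6 of 8 smooth muscle genes had *P* under 0.05 (1 called higher, median log2 fold change 0.44), 2 of 6 endothelial genes were called lower (*Pecam1* -0.53 ± 0.128 and *Vwf* -0.82 ± 0.219, list median -0.41) and 1 of 6 fibroblast genes was (*Lum* -1.90 ± 0.270, list median -0.46). Summed endothelial levels were 795 to 1159 CPM in untreated and 566 to 761 CPM in DHT-treated orchiectomized mice, and fibroblast levels 3474 to 6667 and 2886 to 4550 CPM. The part of this shift in the DHT values of the 9 genes was not tested. Both comparisons use the same orchiectomized mice, so a high value in 1 of these libraries enters both with opposite signs. *Cd8a* and *Zap70* reached the filter level in 5 libraries, of which 4 and 3 were orchiectomized, so these counts are given as a description.

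With orchiectomized mice 2 and 3 left out, 2 of 7 were called higher than in controls (*Cd3g* and *Cd8a*), where 0.559% of 14309 genes were called higher. In the DHT comparison 3 were lower (*Cd247*, *Cd8a* and *Lck*), where 3.56% of all genes were, and 0 had an adjusted *P* under 0.05 (edgeR, lowest 0.0857 for *Cd8a*), where 0.461% of all genes were lower by that threshold. At an unadjusted *P* under 0.05 (edgeR) there were 6 of 7, a level for which no share of all genes is given here. All 7 stayed above 0 in the first comparison and below 0 in the second, as 51.5% and 47.5% of all genes did, with medians of 1.17 and -1.51 on the log2 scale.

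**Figure D4:**
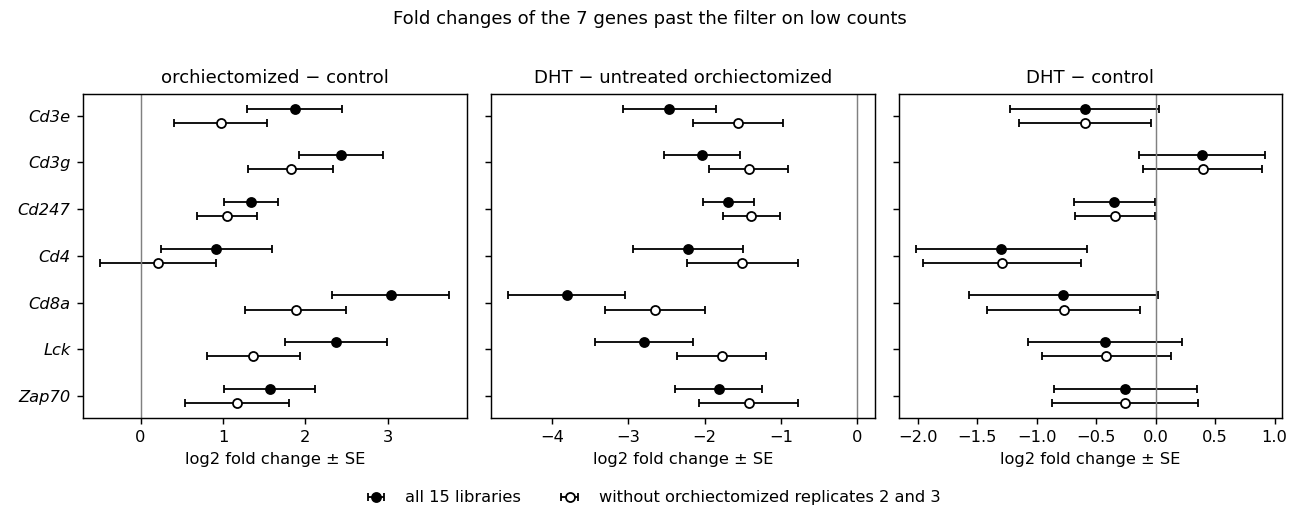
Log2 fold change ± SE of the 7 genes past the filter in the 3 comparisons, from all 15 libraries (filled) and without orchiectomized mice 2 and 3 (open). Without these libraries the values move toward 0 in the left and middle panels, for *Cd8a* from 3.03 to 1.88 and from -3.81 to -2.65, and hardly move in the right panel, which compares DHT with control mice.

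DHT mice and control mice were not told apart by these genes. In that comparison 0 of 7 genes were called by edgeR or DESeq2 and 0 of 7 had an unadjusted *P* under 0.05, where 3.53% of all genes were called. The log2 fold changes were -0.60 ± 0.624 for *Cd3e*, 0.39 ± 0.528 for *Cd3g*, -0.35 ± 0.341 for *Cd247*, -0.78 ± 0.795 for *Cd8a*, -0.42 ± 0.647 for *Lck* and -0.25 ± 0.603 for *Zap70*. *Cd4* had the largest difference, -1.29 ± 0.718 (edgeR adjusted *P* = 0.50), which was -0.30 without control mouse 4. The genes tested alone differed by -0.23 for *Cd3d* (exact permutation *P* = 0.452) and -0.11 for *Cd8b1* (exact permutation *P* = 0.563). With SEs of 0.341 to 0.795 on the log2 scale even the difference of -1.29 was not called, so a missing call does not show that levels were alike.

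Genes that act directly downstream of the receptor were taken as a list of 40 proximal signaling genes. Of the 33 tested, 10 were called higher in orchiectomized than in control mice (2.08% of all genes), 0 lower and 23 not called, and the median of the 33 was 0.39 on the log2 scale. *Rasgrp1*, an activator of Ras in lymphocytes, rose by 1.74 ± 0.407 (edgeR adjusted *P* = 0.244), and the adaptor *Sla*, which limits receptor levels, rose by 1.62 ± 0.409 (edgeR adjusted *P* = 0.244). With DHT 14 of 33 were lower (7.27% of all genes), 13 of them at an adjusted *P* under 0.05 (3.8% of all genes), and 19 were not called, and the median was -0.59. *Rasgrp1* fell by 2.65 ± 0.433 (edgeR adjusted *P* = 0.00777) and *Ptprc*, the CD45 phosphatase of all leukocytes, fell by 2.20 ± 0.388 (edgeR adjusted *P* = 0.0103). In DHT against control mice 0 of 33 were called by edgeR (3 had *P* under 0.05) and 1 by DESeq2. In the fit without orchiectomized mice 2 and 3, 0 of 33 were called against controls (edgeR, 8 with *P* under 0.05) and 12 were lower with DHT, 1 of them by the adjusted threshold. Of all genes in that fit, 0.559% were called higher against controls, 3.56% lower with DHT and 0.461% lower by the adjusted threshold. Several members of this list, *Ptprc* among them, are also active in B cells and other leukocytes.

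Among 13 other T cell surface and costimulation genes only 3 passed the filter. *Cd2*, an adhesion receptor of lymphocytes, rose by 1.73 ± 0.552 with orchiectomy (edgeR adjusted *P* = 0.297) and was -2.00 ± 0.565 with DHT (edgeR adjusted *P* = 0.0552). *Thy1*, which fibroblasts also express, was lower with DHT (-0.99 ± 0.241, edgeR adjusted *P* = 0.0323). Without orchiectomized mice 2 and 3, 0 of the 3 were called with orchiectomy (edgeR, also 0 with *P* under 0.05) and 1 was called lower with DHT, where 0.559% of all genes were called higher and 3.56% lower. Of 9 naive T cell genes tested, 3 were higher with orchiectomy and 3 were lower with DHT (2.08% and 7.27% of all genes), led by *Tcf7*, a transcription factor of naive T cells (2.33 ± 0.552 and -3.08 ± 0.580), with *Il7r*, the receptor for a T cell survival cytokine, at -2.57 ± 0.505 with DHT. Once orchiectomized mice 2 and 3 were left out, 0 of the 9 were called against controls (edgeR, 4 with *P* under 0.05) and 2 were called lower with DHT (0.559% higher and 3.56% lower over all genes). Among 4 regulatory T cell genes tested, 0 were called with orchiectomy (edgeR, 1 with *P* under 0.05) and *Il2ra* was lower with DHT (-1.37 ± 0.415), and 0 of the 4 were called in either comparison (edgeR, also 0 with *P* under 0.05) without orchiectomized mice 2 and 3. *Foxp3*, their defining factor, had at most 7 reads in any library. The constant segments of the receptor chains themselves were not analysed here.

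Genes of other leukocytes varied between the same libraries. All 12 B cell markers were counted, 9 were tested, 8 were higher in orchiectomized mice and 9 were lower with DHT (2.08% and 7.27% of all genes), and their summed level was 9.45 to 20.1 CPM in control, 15.6 to 242 CPM in orchiectomized and 8.37 to 20.0 CPM in DHT mice. *Cd79b*, which codes for a signaling chain of the B cell receptor, rose by 3.10 ± 0.669. Without orchiectomized mice 2 and 3, 4 of 9 B cell genes were called higher and 6 of 9 lower (0.559% and 3.56% of all genes). Among 5 dendritic cell genes tested, 1 was higher in orchiectomized mice and 3 were lower with DHT (2.08% and 7.27% of all genes). The first was *Itgax*, which rose by 2.01 ± 0.475 and was -2.99 ± 0.510 with DHT. With orchiectomized mice 2 and 3 left out, 1 of 6 tested was called higher and 2 of 6 lower (0.559% and 3.56% of all genes). Of 10 NK and cytotoxic genes 2 were tested, and *Ccl5*, a chemokine of effector lymphocytes, was called in both comparisons (1.88 ± 0.523 and -1.57 ± 0.519), as was 1 of the 2 without orchiectomized mice 2 and 3. The NK cell receptor gene *Ncr1* had 0 to 8 reads. The part of these cells in the results above was not tested.

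Of 11 thymocyte markers, all counted and 5 tested, *Rag1* was called higher with orchiectomy and lower with DHT (4.88 ± 1.34 and -6.31 ± 1.54), where 2.08% and 7.27% of all genes were. Without orchiectomized mice 2 and 3 the numbers called were 0 (edgeR, 1 with *P* under 0.05) and 1 of 5 (0.559% and 3.56% of all genes). The summed level of the 11 markers, which the widely expressed *Tcf12* and *Cd1d1* dominate (88.4 ± 6.14 and 65.5 ± 29.3 CPM in controls, SD), was 137 to 228 CPM in control, 121 to 251 CPM in orchiectomized and 120.0 to 185 CPM in DHT mice. *Rag1* had 7, 11, 612, 49 and 24 reads in orchiectomized mice 1 to 5, 23 in control mouse 4, and 0 to 4 in the other 9 libraries. *Ptcra*, the pre-T cell receptor chain that defines developing thymocytes, had 2 reads in orchiectomized mouse 3, 1 each in DHT mice 3 and 4, and 0 in the other 12 libraries, too few to set 1 library apart. Of 10 thymic epithelium genes 2 were tested and 0 called (edgeR, also 0 with *P* under 0.05), and *Foxn1* had at most 3 reads. Of 6 lymph node stroma genes, *Ccl21a* was listed at 0 in all 15 libraries and *Chst4*, a sulfotransferase of lymph node venules, was lower with DHT than in untreated orchiectomized mice (-2.66 ± 0.516) and than in control mice (-2.58 ± 0.516). Of 13 lung genes 4 were tested, of which 3 were higher with orchiectomy (*Scgb1a1* 7.69 ± 1.81) and 3 lower with DHT (2.08% and 7.27% of all genes). When orchiectomized mice 2 and 3 were left out these numbers were 3 and 2 of 5 tested (0.559% and 3.56% of all genes).

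The genes whose levels followed the 7 tested members most closely were found over the 15 libraries. By Pearson correlation of log2 CPM with the mean of the 7, the nearest of 14114 other genes included *Tcf7* (r = 0.958), *Bcl11b* (0.952), *Grap2* (0.950), *Ikzf3* (0.948), *Ikzf1* (0.940), *Rasal3* (0.937), *Rasgrp1* (0.935), *Rhoh* (0.934) and *Sla* (0.932), where the median of all genes was 0.021. Of these 9, 4 are in the proximal signaling list (*Grap2*, *Rasgrp1*, *Rhoh* and *Sla*), and 2 are transcription factors of T cell commitment (*Tcf7*, *Bcl11b*). Over the 13 libraries left without orchiectomized mice 2 and 3 the same 9 had r from 0.875 to 0.907. Pairs of the 7 members correlated with r from 0.689 to 0.902 over 15 libraries and from 0.440 to 0.854 over 13, the lowest of the latter being *Cd3e* with *Lck*. These correlations are descriptions, since the libraries share groups, and levels in 1 library share its depth and its mix of cells.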

How the data were processed

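RNA-Seq of 15 whole aortas (5 per group) was analyzed from the raw read counts per gene symbol that the authors deposited, whole numbers without normalization. The submitters' processing notes name STAR, Cufflinks, DESeq2 and the mm10 genome, while the counting program, its strand setting and the annotation are not given in the sources used here. The authors' 2 entries for reads assigned to no gene (6.26% to 14.4%) or to several (1.34% to 1.97%) were left out. Groups and replicate numbers were taken from the labels, and no pair of libraries held identical counts.

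Counts were fitted in R 4.3.3 with edgeR 4.0.16 (filterByExpr with minimum count 10 and minimum total 15, TMM, quasi-likelihood test, all 15 libraries, no covariate). The SE is the size of the log2 fold change over the square root of F. A call is an unadjusted *P* under 0.01, the study's threshold, and Benjamini-Hochberg adjusted *P* values cover all genes tested. Counts at an unadjusted *P* under 0.05 are given without a share of all genes. CPM used TMM-scaled library sizes, and log2 CPM for the correlations a prior count of 3. Genes under the filter and the *Cd8a* to *Cd4* ratio were tested by exact two-sided permutation of log2(CPM + 0.5). *P* values cover the spread between these mice. The fit was tested on simulated data.

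The members and the gene lists were chosen with earlier results of these data known. Named are all 9 members, in each list the 2 called genes with the smallest *P* per direction, defining markers, and the 10 genes nearest by correlation; some genes that this rule names are not reported here. *Tcf12*, *Cd1d1* and *Foxp3* were named after their values were seen. Of 10 symbols for receptor constant segments 0 matched. Positions are GENCODE M21 (GRCm38), promoters RefSeq (GRCm38.p6), which were read for 7 of the 9 members, not for *Cd4* and *Cd8b1*. Alternatives were DESeq2 1.42.0, RLE size factors, other filters, the 2 groups compared alone, the replicate number as a block, a robust fit, voom (limma 3.58.1) with quality weights, the adjusted threshold, other pseudocounts (0.1 and 1), plain library sizes, and leaving out libraries. Leaving out control mouse 4 together with orchiectomized mice 2 and 3, leaving out single libraries for *Cd3d* and *Cd8b1*, and the adjusted threshold of DESeq2, were added after the data were seen. Figures were drawn with Python 3.11.15.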

Additional observations from a re-analysis of the deposited data

Results flagged for a closer look

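The limit was a gap between a single library and the next of more than 0.71 of the range of its group. Chance passes it in about 1 group in 20 where values are normally distributed, which CPM from low counts need not be. In 30 groups of 5 mice (each gene and the *Cd8a* to *Cd4* ratio in each group), 5 had a single library past this limit. In control mouse 4 these were *Cd4* at 6.79 CPM (next highest control 2.08), *Cd8a* at 1.42 CPM (next 0.633) and *Zap70* at 1.27 CPM (next 0.562). In orchiectomized mouse 3 they were *Cd8a* at 16.4 CPM (next 4.67) and *Cd8b1* at 8.99 CPM (next 3.04). Control mouse 4 also had 23 reads of *Rag1* and 619 of *Cxcl13*, and orchiectomized mouse 3 had 612 reads of *Rag1*. The part of these transcripts in the 5 values was not tested.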

How the results depend on the processing

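With orchiectomy the number of the 9 genes called (5) was 3 with voom, 0 by the edgeR adjusted threshold, 4 by that of DESeq2, 2 without orchiectomized mice 2 and 3, and 1 when control mouse 4 was also left out, where 5 were tested since *Cd8a* and *Zap70* no longer passed the filter, and single omissions gave 4 to 8. With DHT (7) it was 4, 5, 7, 3 and 2 in these fits, and 5 to 9 with single omissions, the lowest without orchiectomized mouse 3 or 4. In either comparison, a count over 7 includes *Cd3d* or *Cd8b1*, which the fit of all libraries did not test. Both reached the filter level in 4 libraries, all of them orchiectomized, so a difference was partly built into their being tested. With only the groups compared in the fit, 5 members were tested and called with DHT (*Cd8a* and *Zap70* did not pass its filter), with edgeR adjusted *P* from 0.0587 to 0.0921, so that 0 of these 5 passed the adjusted threshold, against 4 of them in the fit of all libraries (not *Cd4*). A minimum of 10 counts in every library left none of the 9 to test, so that 0 were called in both comparisons. Of the proximal signaling genes, 10 called with orchiectomy became 2 with that minimum, 4 with voom, 6 by the adjusted threshold of DESeq2, and 0 by that of edgeR or without orchiectomized mice 2 and 3 (8 to 13 with single omissions). Those called with DHT (14) were 6 with that minimum (13 to 19 singly), and against controls (0) 1 with DESeq2, 2 with only the groups compared, and 1 without orchiectomized mice 2 and 3 (0 to 1 singly). Of the surface genes, 1 with orchiectomy became 5 over all genes with at least 1 count and 0 with the minimum of 10, the 2 groups alone, voom, either adjusted threshold or without orchiectomized mice 2 and 3 (0 to 4 singly). The 2 called with DHT became 6 over all genes and 1 with the minimum of 10, voom, the edgeR adjusted threshold or without those mice (1 to 4 singly, and 0 to 1 for DHT against control). The replicate numbers did not pair the mice: correlations of deviations of same-numbered mice ran from -0.466 to 0.463, with 5 of 15 over 0.1. With the replicate block 4 and 5 of the 9 genes were called, as *Cd3e* against controls (1.61) and *Cd4* (-1.84) and *Zap70* (-1.61) with DHT were lost, and the surface genes called were 0 and 1.

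The ratio of *Cd8a* to *Cd4* ranged with single omissions from 0.74 to 1.32 with orchiectomy (past 0.05 without control mouse 1, exact permutation *P* = 0.0238, or orchiectomized mouse 1, *P* = 0.0317), from -0.97 to -0.58 with DHT (past 0.05 without orchiectomized mouse 1, *P* = 0.0159, or DHT mouse 3, *P* = 0.0476) and from -0.0023 to 0.58 for DHT against control. Without control mouse 4 the DHT against control values of *Zap70* (0.19), *Cd8b1* (0.013) and the ratio (-0.0023) changed sign (ranges with single omissions -0.62 to 0.19 for *Zap70* and -0.19 to 0.013 for *Cd8b1*), the latter pair also when orchiectomized mice 2 and 3 were left out. The cause was not tested. Other fits kept the direction of each value. With single omissions *Cd8a* with orchiectomy ranged from 2.07 without orchiectomized mouse 3 to 3.54 without control mouse 4, and it was 1.88 without orchiectomized mice 2 and 3. Counts under 30 in most libraries limit every value given here.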

Other observations

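When every gene with 1 count or more was fitted, *Cd3d* and *Cd8b1* were tested with the others, and both were called in both comparisons. *Cd3d* had log2 fold changes of 2.08 with orchiectomy (edgeR adjusted *P* = 0.222) and -2.49 with DHT (edgeR adjusted *P* = 0.0460). *Cd8b1*, the CD8β chain, had 3.09 (edgeR adjusted *P* = 0.176) and -3.46 (edgeR adjusted *P* = 0.0135). Of the reads of both CD8 chains, *Cd8b1* made up 34.6% to 58.3% in the orchiectomized mice, 30.0% to 50% in the controls and 22.2% to 66.7% in the DHT mice, the last on 33 reads in all 5 libraries together.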
